A study of Mus musculus with 6 samples.

Results

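A set of 10 genes for large histone lysine methyltransferases were followed in mouse prefrontal cortex: Kmt2a, Kmt2b, Kmt2c, Kmt2d, Kmt2e, Setd1a, Setd1b, Setd2, Nsd1 and Ash1l. They were chosen by name, with earlier results of these data known, as 10 of the 21878 genes in the deposited tables. All 10 were among the 14440 genes with enough reads to be tested. RNA came from unsorted tissue of 6 mice, 3 per group. Control mice are labelled WT and, per the series design, carried CamKIIα-Cre with both Gls1 alleles intact. Gls1_CamkIIaCre mice, called mutants here, carried the same Cre with 1 floxed Gls1 allele (CamKIIαCre;Gls1+/flox). Gls1 encodes the glutaminase that makes glutamate from glutamine. Both groups express Cre, which is made in excitatory neurons of the forebrain, so the allele is lost in a part of the cells and the mutants are mosaic heterozygotes. Homozygous mutants did not survive and were not used. In bulk tissue, a change in the share of a cell type and a change in RNA per cell cannot be told apart.

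Most histone lysine methyltransferases move methyl groups from S-adenosylmethionine to lysines of histone tails through a catalytic SET domain. Methylation of H3K4 marks active promoters and enhancers, and methylation of H3K36 marks the bodies of transcribed genes. KMT2A to KMT2D and SETD1A and SETD1B work in COMPASS complexes built on the shared core of WDR5, RBBP5, ASH2L and DPY30. Loss of a single copy of several of these genes causes neurodevelopmental disorders in humans, among them Kabuki syndrome (KMT2D) and Sotos syndrome (NSD1), so that small differences in dose have been studied in brain.

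Of the 10 genes, chosen with earlier results of these data known, 5 were higher in the mutant cortex and 0 were lower. The shares of all tested genes beside them are therefore descriptive. Kmt2a, Kmt2e, Setd1b, Setd2 and Ash1l rose by 10.4% to 16.8% (edgeR adjusted p between 0.00737 and 0.0469, n = 3 per group). Among all tested genes 8.24% were called, 3.95% higher and 4.29% lower. In the same 5 genes all mutant libraries lay above all controls, as in 13.1% of tested genes. All 10 genes had a fold change above 0, against 49.2% of tested genes, and their median log2 fold change was 0.14, against -0.0024 over all tested genes. The 10 genes have long transcripts, and longer transcripts were higher in the mutants across the whole table. The part of transcript length in the changes of the 10 genes was not tested. None of the 10 passed by edgeR once length and GC content of transcripts were adjusted for. In that fit 5 had an unadjusted p under 0.05, and the share of all genes under it is not given here. With a correction for the length implied by counts and FPKM instead, 1 of the 10 passed, Setd1b (log2 fold change 0.20, edgeR adjusted p = 0.0354).

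**Figure D1:**
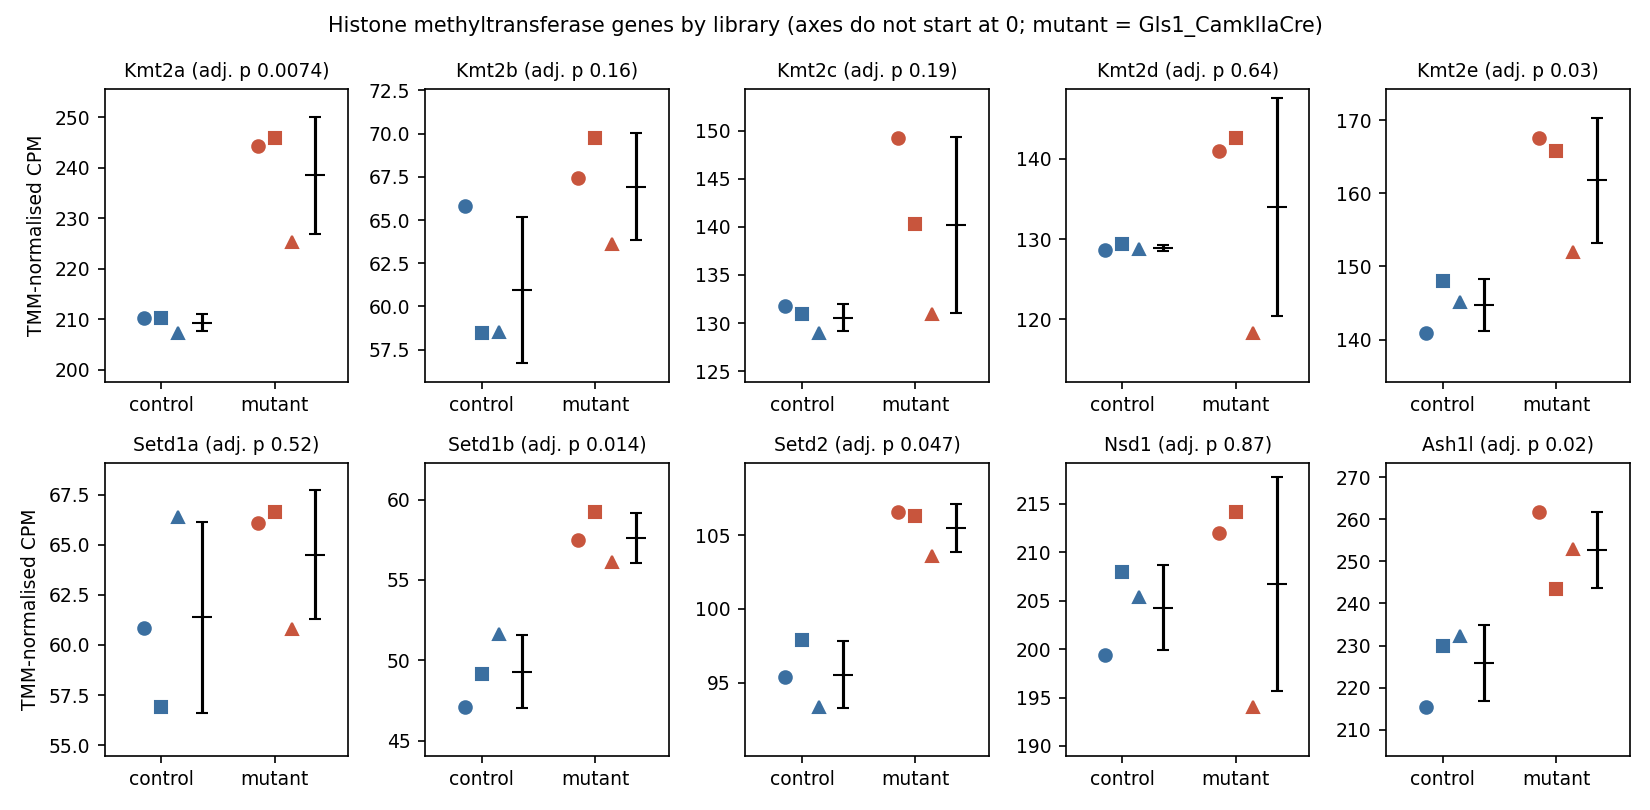
Level (y axis, CPM after TMM normalisation) of the 10 genes, 1 panel per gene, with 3 control libraries in blue and 3 Gls1_CamkIIaCre libraries in red (circle, square and triangle for replicates 1, 2 and 3), and the mean with SD in black. The groups do not overlap in Kmt2a, Kmt2e, Setd1b, Setd2 and Ash1l, and the triangle is the lowest mutant value in 9 of 10 panels.

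Among the H3K4 writers, Kmt2a encodes MLL1, the methyltransferase that maintains Hox gene expression and is broken by leukaemia translocations. It stood at 210.3, 210.2 and 207 CPM in the control libraries (counts scaled to library size by TMM) and at 244, 246 and 225 CPM in mutants 1, 2 and 3. The control SD was 0.812% of the mean, and every mutant value lay above the controls. The change was 0.19 ± 0.041 on the log2 scale (SE) with an edgeR adjusted p of 0.00737, the smallest p of the 10 genes and rank 343 of 14440. Without mutant 2 its adjusted p was 0.0694. Kmt2b, its close paralogue, had 65.8, 58.5 and 58.5 CPM in controls and 67.4, 69.8 and 63.6 CPM in mutants. Control 1 lay above mutant 3, so the groups overlapped, and the log2 fold change of 0.13 had a 95% interval from 0.016 to 0.25 (edgeR adjusted p = 0.157).

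Kmt2c and Kmt2d encode MLL3 and MLL4, which methylate H3K4 at enhancers. Kmt2c had 132, 131 and 129 CPM in controls and 149, 140.3 and 131 CPM in mutants, with mutant 3 inside the control range. Its log2 fold change was 0.10 (95% interval 0.0054 to 0.20, edgeR adjusted p = 0.194). Kmt2d had 128.7, 129.4 and 128.7 CPM in controls, the smallest relative SD of the 10 genes, and 141, 143 and 118 CPM in mutants. Mutants 1 and 2 lay above all controls and mutant 3 lay below them, which gave a log2 fold change of 0.055 with an interval from -0.068 to 0.18 (edgeR adjusted p = 0.642). Without mutant 3 the log2 fold change of Kmt2d was 0.14 (edgeR adjusted p = 0.0716).

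Kmt2e encodes MLL5, a chromatin reader with a divergent SET domain that is thought to lack methyltransferase activity. Its values were 141, 148 and 145 CPM in controls and 168, 166 and 152 CPM in mutants, with no overlap. On the log2 scale it rose by 0.16 ± 0.045 (SE, edgeR adjusted p = 0.0301). The call was lost without control 1 (adjusted p = 0.113), control 2 (0.0571), mutant 1 (0.131) or mutant 2 (0.148). Kmt2e shares 880 bp with Srpk2 on the other strand, and Srpk2 was higher too, at 332 ± 14.4 CPM against 302 ± 10.8 CPM in controls (SD, n = 3 each, edgeR adjusted p = 0.0479). Reads in the shared stretch cannot be assigned to a gene without strand.

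The SETD1 enzymes, which carry out most H3K4 trimethylation at promoters, are encoded by Setd1a, a schizophrenia risk gene in humans, and Setd1b. Setd1b was at 47.1, 49.2 and 51.7 CPM in controls and at 57.5, 59.2 and 56.1 CPM in mutants. It had the largest fold change of the 10 genes, 0.22 ± 0.054 on the log2 scale (SE, edgeR adjusted p = 0.0136), with the lowest mutant above the highest control. Its adjusted p was 0.0692 without control 1 and 0.0832 without mutant 2. Setd1a was at 60.8, 56.9 and 66.4 CPM in controls and at 66.1, 66.6 and 60.8 CPM in mutants. These groups overlapped over most of their range, with a log2 fold change of 0.072 and an interval from -0.051 to 0.19 (edgeR adjusted p = 0.522). The ratio of Setd1b to Setd1a was higher in each mutant than in any control: on the log2 scale it was -0.37, -0.21 and -0.36 in controls and -0.20, -0.17 and -0.12 in mutants. An exact two-sided permutation test of that ratio gave p = 0.1, the smallest that 3 against 3 libraries allow, and 0.3 adjusted over the 3 paralogue pairs compared. The ratios of Kmt2a to Kmt2b (exact p = 0.6) and of Kmt2c to Kmt2d (exact p = 0.4) overlapped between the groups.

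Among the H3K36 writers, Ash1l, a dimethyltransferase that opposes Polycomb silencing, had 215, 229.9 and 232 CPM in controls and 262, 244 and 253 CPM in mutants. It rose by 0.16 ± 0.042 (SE, edgeR adjusted p = 0.0201) with no overlap. The call was lost without control 1 (adjusted p = 0.107) or mutant 1 (0.102). An 800 bp stretch of Ash1l lies over Dap3 on the other strand, which stood at 60.4 ± 1.61 against 58.8 ± 2.91 CPM (edgeR adjusted p = 0.724, n = 3 per group). Setd2, the enzyme that trimethylates H3K36 behind RNA polymerase II, had 95.4, 97.9 and 93.4 CPM in controls and 107, 106 and 104 CPM in mutants. The groups were well apart for their spread (control SD 2.26 CPM, mutant SD 1.64 CPM), but the log2 fold change of 0.14 ± 0.044 (SE) only just passed (edgeR adjusted p = 0.0469). Setd2 lost its call in 16 of 20 alternative analyses, DESeq2 (adjusted p = 0.088), limma voom (0.0547) and the removal of any 1 library among them. Nsd1, a dimethyltransferase, had 199, 208 and 205 CPM in controls and 212, 214 and 194 CPM in mutants. Its log2 fold change was 0.017 with an interval from -0.072 to 0.11 (edgeR adjusted p = 0.868), the smallest of the 10 genes.

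**Figure D2:**
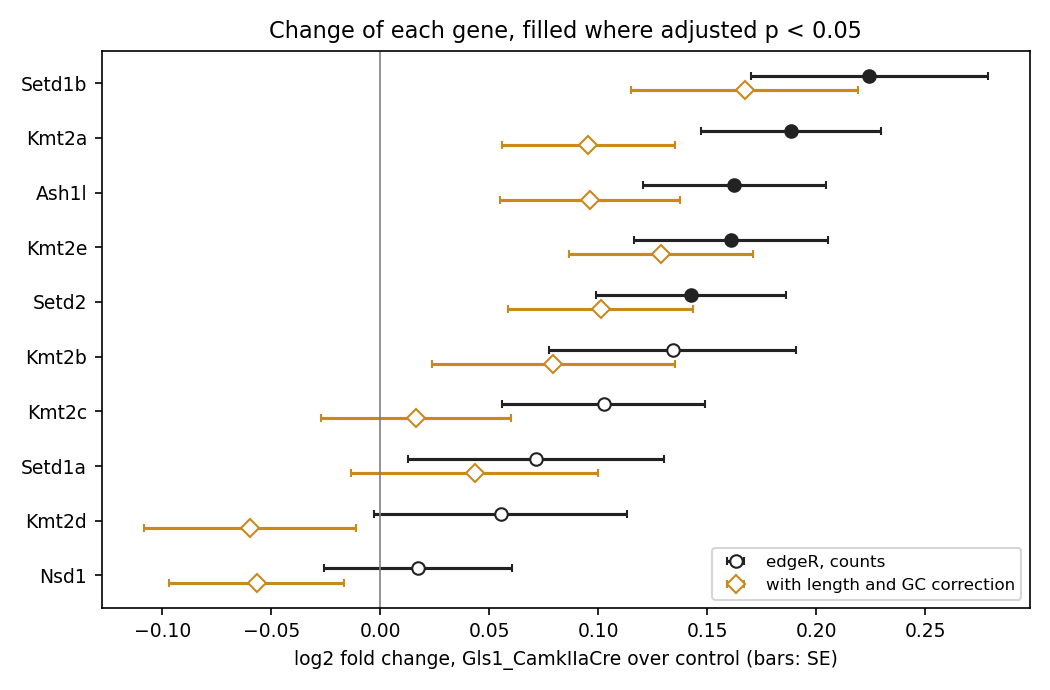
Log2 fold change (Gls1_CamkIIaCre over control, x axis) with its SE for each of the 10 genes, from edgeR on the counts (black) and with transcript length and GC content adjusted for (orange), filled where the adjusted p was under 0.05. There are 5 filled black points and no filled orange point, and Kmt2d and Nsd1 lie below 0 in orange.

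Promoters are shown because several of the genes moved in 1 direction. RefSeq promoter sequences of the mouse build GRCm38.p6 were matched for 5 of the 10 genes, and the stretch from 250 to 101 bases before the start used in that table was read. That start is the outer end of the annotated gene only for Setd1a. The stretches of Kmt2a, Kmt2c and Setd2 lie outside the gene but nearer to its end, and that of Kmt2d lies inside the gene, at a start within it. Of these, Kmt2a and Setd2 rose, and Setd1a is given as a gene that did not pass. Capitals mark GGGCGG or its reverse complement CCGCCC, the GC box bound by Sp1-family factors, with overlapping matches joined. Kmt2a lies at chr9:44881390-44881539, - strand, Setd2 at chr9:110532347-110532496, + strand, and Setd1a at chr7:127777139-127777288, + strand, each read 5′ to 3′ in the sense of its gene.
Kmt2a: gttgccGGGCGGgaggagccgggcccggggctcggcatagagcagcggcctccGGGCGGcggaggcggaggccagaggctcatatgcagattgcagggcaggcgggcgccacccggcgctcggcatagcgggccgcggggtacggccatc
Setd2: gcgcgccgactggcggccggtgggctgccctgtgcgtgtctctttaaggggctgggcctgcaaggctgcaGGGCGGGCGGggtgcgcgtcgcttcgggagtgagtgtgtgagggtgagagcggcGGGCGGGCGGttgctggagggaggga
Setd1a: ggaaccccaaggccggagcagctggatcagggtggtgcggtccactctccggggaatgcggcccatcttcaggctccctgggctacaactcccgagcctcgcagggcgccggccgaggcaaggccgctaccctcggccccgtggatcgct
The GC box occurred 2 times in the Kmt2a stretch, 4 times in Setd2, 7 times in Kmt2c and 3 times in the stretch inside Kmt2d, and these letters were not in the Setd1a stretch. Of all 32851 promoter stretches of the same length, 16.7% held it on either strand. GC content was 70.7% to 90.0% in the 5 genes, against a median of 50.7% over all stretches. The CCAAT box (CCAAT), the TATA box (TATAAA) and the cyclic AMP response element (TGACGTCA), searched on both strands, were in 0 of the 5, and in 19.98%, 7.29% and 0.371% of all promoters. A match is a match of letters, and Kmt2c holds GC boxes without having passed the test.

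Levels can be compared between genes only per length, for which the deposited FPKM values (fragments scaled to gene length and library size) were used. In the control cortex Ash1l was the highest of the 10, at 12.7 ± 0.477 FPKM (SD, n = 3), followed by Kmt2e at 11.3 ± 0.272, Nsd1 at 9.71 ± 0.110 and Kmt2a at 8.73 ± 0.115 FPKM. The control ranges of these 4 neighbours did not overlap. Setd1a (6.43 ± 0.480 FPKM) and Setd2 (6.11 ± 0.135) overlapped, and so did Kmt2d (5.13 ± 0.117) with Kmt2b (4.99 ± 0.316) and Kmt2b with Kmt2c (4.73 ± 0.0936). Setd1b was the lowest, at 4.31 ± 0.124 FPKM. This order rests on the lengths used for FPKM, and it may differ with other lengths. The lengths implied by counts and FPKM were 17867 bp for Ash1l and 12965 bp for Kmt2e. Their longest transcripts measure 11644 and 7317 bp. In the mutants Ash1l stayed the highest, at 14.1 ± 0.494 FPKM, and Kmt2a (9.67 ± 0.487) and Nsd1 (9.66 ± 0.585) stood level. On the FPKM scale, the groups did not overlap for Kmt2a, Setd1b, Setd2 and Ash1l. The share of all tested genes without overlap on that scale is not given here. By limma on log2(FPKM + 1) 0 of the 10 genes passed (2 at an unadjusted p under 0.05), where the FPKM of the mutants were lower as a whole, with sums over all genes of 238924 to 243144 against 249602 to 252272 in controls. With each library first scaled to a common median ratio, 0 of the 10 passed by limma and 5 had an unadjusted p under 0.05. For these limma fits the share of all tested genes under that p is not given here. On counts, 7 of the 10 had an unadjusted edgeR p under 0.05, against 22.4% of tested genes.

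The 10 genes have long transcripts, from 6487 bp in Setd1a to 19823 bp in Kmt2d, taking the longest GENCODE M21 transcript of each. These lengths lie between the 87.6th and the 99.9th percentile of tested genes. Over all tested genes the median log2 fold change went from -0.13 in transcripts up to 1000 bp to 0.075 in those over 8000 bp, and the share called higher from 0.802% to 16.2%. Among the 1773 tested genes at least as long as Setd1a, the 10 included, 12.1% were called higher and 70.1% had a fold change above 0, with a median of 0.062. Within the 10, the order of length was not the order of change. The longest, Kmt2d, and the fourth in length, Nsd1, changed least, and Setd1b, at 8857 bp, changed most.

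**Figure D3:**
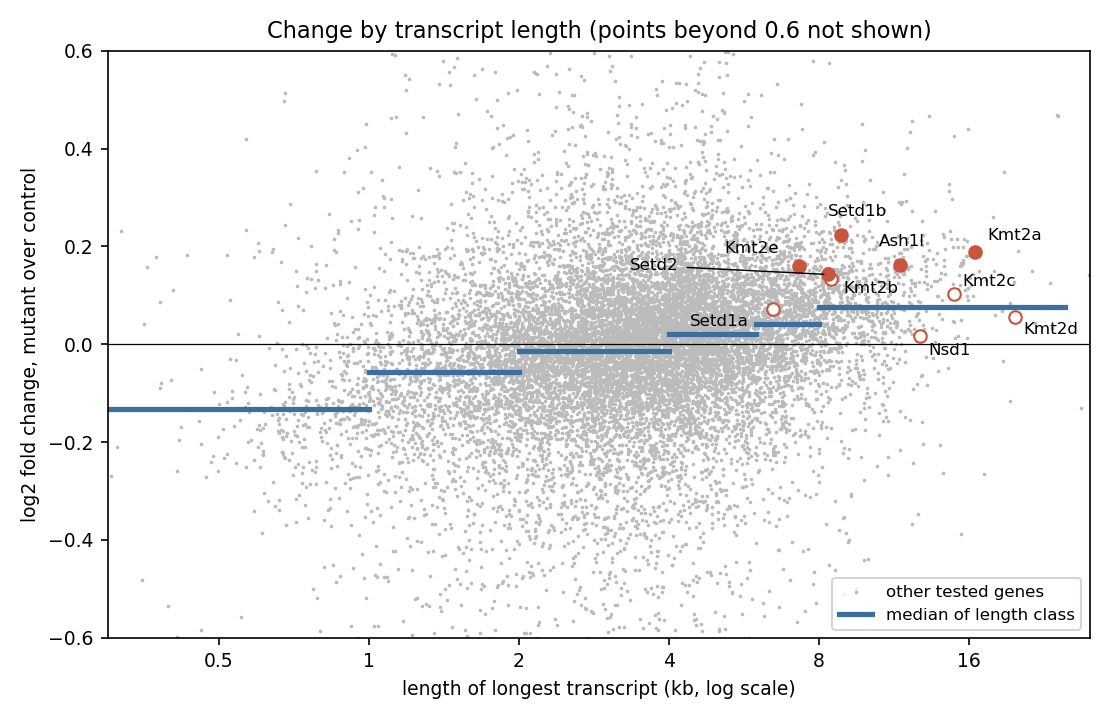
Log2 fold change (mutant over control) against the length of the longest transcript in kilobases (log axis) for all tested genes (grey), with the median of each length class in blue and the 10 genes in red, filled where the edgeR adjusted p was under 0.05. Class medians go from -0.13 to 0.075 from the shortest to the longest class, and the 5 filled genes lie between 0.14 and 0.22.

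A smooth trend over transcript length and GC content was then removed from each library. This takes out any difference between the groups that genes of like length and GC content share, whatever its source. The log2 fold changes became 0.17 ± 0.052 for Setd1b (SE, edgeR adjusted p = 0.0631), 0.13 ± 0.042 for Kmt2e (0.0784), 0.10 ± 0.042 for Setd2 (0.174), 0.096 ± 0.041 for Ash1l (0.184) and 0.095 ± 0.040 for Kmt2a (0.168). By edgeR 0 of the 10 genes passed, while 836 of 14327 genes passed over the whole table. Of the 10, 5 had an unadjusted p under 0.05, and the share of all genes under it in this fit is not given here. The median of the 10 was 0.087, against 0.021 over all tested genes. Kmt2d and Nsd1 turned to -0.060 and -0.057 (edgeR adjusted p = 0.538 and 0.468).

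Library by library, the 10 genes deviated in the same direction as other long transcripts in 5 of 6 libraries. Relative to each gene's mean over the 6 libraries, controls 1, 2 and 3 had a median log2 deviation over the 10 genes of -0.060, -0.051 and -0.056. Mutants 1, 2 and 3 had 0.107, 0.101 and -0.0064. For the 888 other genes with transcripts of 8000 bp or more controls had -0.059, -0.026 and -0.020 and mutants 0.059, 0.041 and 0.020. Genes under 2000 bp had the opposite sign to these long transcripts in each of the 6 libraries. Mutants 1 and 2 were the high libraries for the 10 genes. Mutant 3 held the lowest mutant value in 9 of the 10 and stood near the controls, though long transcripts as a class were above 0 there.

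**Figure D4:**
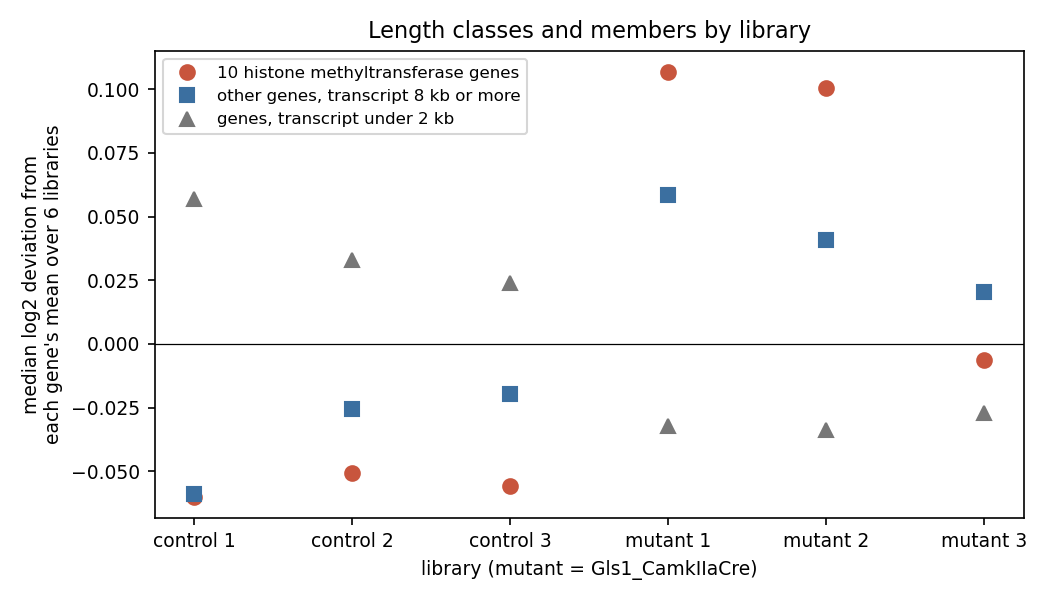
Median log2 deviation from each gene's mean over the 6 libraries (y axis), by library, for the 10 histone methyltransferase genes (red), 888 other genes with transcripts of 8 kb or more (blue) and genes with transcripts under 2 kb (grey). Red points are between -0.060 and -0.051 in the controls and at 0.107, 0.101 and -0.0064 in the mutants.

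The 10 genes also moved together from library to library, with a median Pearson correlation of 0.65 over the 45 pairs and 6 libraries (range 0.22 to 0.96). With group means removed the median was 0.44, from -0.76 to 0.99. These values share libraries, depth and the length trend, and the same measure over other genes is not given here. The 5 genes of at least 5 CPM whose log2 CPM was most like the mean of the 5 called genes, by Pearson correlation over 6 libraries, were Klf2, a transcription factor of endothelium, at 0.996, Ptprz1, a receptor phosphatase of glia, at 0.995, Gria2, an AMPA receptor subunit, at 0.990, Ralgps1 at 0.989 and Htt, which encodes huntingtin, at 0.989. With 11676 candidates and 6 libraries such values are common, and 119 genes were above 0.95.

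Other parts of the H3K4 machinery were read as gene lists. Beside these and the lists that follow, edgeR called 3.95% of all tested genes higher and 4.29% lower. An unadjusted edgeR p under 0.05 was reached by 22.4% of tested genes. Each of these gene lists with 0 calls by edgeR had 0 by DESeq2 and by limma voom as well. Of the 4 shared COMPASS core genes 0 passed by edgeR (0 at an unadjusted p under 0.05), with a median of 0.024. Rbbp5, of smallest p, had 58.2 ± 1.70 against 60.3 ± 0.802 CPM (SD, n = 3 per group, edgeR adjusted p = 0.612). Of 11 subunits specific to a complex 5 had an unadjusted p under 0.05, and the median of the 11 was 0.060. By edgeR 2 of the 11 rose and 0 fell. These were Hcfc1, a scaffold of SETD1 and MLL1 complexes, from 117 ± 6.60 to 130.4 ± 3.42 CPM (edgeR adjusted p = 0.0432), and Ncoa6, a coactivator in MLL3 and MLL4 complexes, from 92.5 ± 2.65 to 102 ± 0.883 CPM (adjusted p = 0.04996). Neither passed by DESeq2 or limma voom, and their transcripts measure 8262 and 7101 bp. The other 5 H3K4 methyltransferases had 0 calls (0 at an unadjusted p under 0.05) and a median of 0.016, and the least p was that of Smyd3, at -0.076 (edgeR adjusted p = 0.585). The 6 H3K4 demethylases had 0 calls and 0 at an unadjusted p under 0.05, with a median of 0.064. Kdm5c, an X-linked intellectual disability gene, stood at 73.1 ± 2.04 against 78.3 ± 4.10 CPM (adjusted p = 0.246).

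On the H3K36 side, 0 of the other 4 methyltransferases (Nsd2, Nsd3, Setmar and Setd5) passed by edgeR, 1 at an unadjusted p under 0.05, with a median of 0.046. Setd5 had 148 ± 6.09 against 159 ± 5.19 CPM (adjusted p = 0.169). The 6 H3K36 demethylases had 0 calls, 0 at an unadjusted p under 0.05 and a median of 0.076, with Kdm4a of smallest p (54.5 ± 3.54 against 59.1 ± 5.19 CPM, adjusted p = 0.300). Among 5 genes that work beside SETD2 and ASH1L, Supt6, the elongation factor SPT6, rose from 176 ± 4.76 to 197 ± 3.26 CPM (adjusted p = 0.0139), and Polr2a, the largest subunit of RNA polymerase II, from 80.9 ± 1.41 to 90.1 ± 2.67 CPM (adjusted p = 0.0396). With DESeq2 1 of these 5 genes passed, and with limma voom 2. The ASH1L partner Morf4l1 (MRG15) stood at 279.6 ± 1.10 against 281 ± 6.91 CPM.

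Writers of other marks gave 1 call each on the H3K9 and H3K27 lists. Prdm2, an H3K9 methyltransferase, rose by 0.16 ± 0.045 (SE, edgeR adjusted p = 0.0320), 1 of 6 tested, with a median of 0.083. By DESeq2 0 of the 6 passed, and by limma voom 1. Ezh1, the Polycomb methyltransferase of non-dividing cells, was higher at 75.0 ± 2.95 CPM against 64.5 ± 5.41 CPM (adjusted p = 0.0240), 1 of 4, with a median of 0.082. Its transcript of 4207 bp is shorter than those of the 10. The transcripts of Supt6, Polr2a and Prdm2 measure 6488, 6740 and 7304 bp, each longer than that of Setd1a. The 4 writers of H3K79 and H4K20 had 0 calls (0 at an unadjusted p under 0.05) and a median of -0.019, with Kmt5a of smallest p (adjusted p = 0.358). Of 9 histone acetyltransferases 0 passed by edgeR and 1, Ep300, had an unadjusted p under 0.05 (0.12, adjusted p = 0.143), with a median of 0.039. A list of 8 genes held those that supply S-adenosylmethionine or clear its product, with the Ahcy-like genes Ahcyl1 and Ahcyl2. Of the 8, 0 passed by edgeR and 2 (Mtrr and Ahcyl1) had an unadjusted p under 0.05. The median of the 8 was -0.015, and Mtrr, of smallest p, had a log2 fold change of 0.24 (edgeR adjusted p = 0.152).

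Markers of cell types moved with the groups as well. All 6 excitatory neuron markers of cortex were detected in the tissue labelled prefrontal cortex, with a summed level of 5132 to 5411 CPM in controls and 5273 to 5815 CPM in mutants. Most of that sum was Camk2a, at a mean of 3256 CPM in controls and 3562 CPM in mutants. Slc17a7, the next in level, stood at 1453 and 1433 CPM, and 4 of the 6 had a fold change above 0. By edgeR 0 of 6 passed (3 at an unadjusted p under 0.05, and 1 called by DESeq2 and by limma voom). The 10 markers of striatal neurons, a neighbouring region, had a median of -1.65, and 8 fell. Their sum was 584 to 994 CPM in controls and 223 to 255 CPM in mutants, and 0 of the 10 were at 0 in all libraries. Of the oligodendrocyte markers 3 of 6 fell, of interneuron markers 3 of 6, of endothelial and mural markers 3 of 6, of astrocyte markers 2 of 6, of oligodendrocyte precursor markers 2 of 4, and of microglia markers 1 of 6, and 0 rose on any of these lists. Summed oligodendrocyte markers were 3228 to 3825 CPM in controls and 2944 to 3372 CPM in mutants, and the interneuron and microglia sums overlapped too. The astrocyte sums did not overlap, at 1355 to 1400 CPM in controls against 1275 to 1343 CPM in mutants. Neither did those of oligodendrocyte precursors (179 to 183 against 152 to 167 CPM) and of endothelial and mural cells (331 to 366 against 308 to 326 CPM). The part of cell makeup in the changes of the 10 genes was not tested.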

How the data were processed

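Bulk RNA sequencing of prefrontal cortex was done on 6 mice, with TRIzol extraction and the SMARTer mRNA-Seq library kit named in the labels' protocols. Per the submitters' processing notes, reads were placed on GRCm38 (mm10). Which aligner and counter were used, whether by strand, and how FPKM were made is not given in the sources used here. For the same 21878 genes the authors deposited a table of counts and a table of FPKM. Library totals were 17987807 to 19330961 counts.

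The main test was that of edgeR 4.0.16, run in R 4.3.3 on the counts (TMM factors, filterByExpr, robust glmQLFit and glmQLFTest, no covariate), Gls1_CamkIIaCre against control. The Benjamini-Hochberg adjustment ran over all 14440 tested genes, and a gene was called at an adjusted p under 0.05. FPKM values were tested with limma 3.58.1. DESeq2 1.42.0 was an alternative. SE was taken as the log2 fold change over the root of the F statistic. The length and GC correction was a natural spline of 4 degrees of freedom for each property per library. Length and GC content are those of each gene's longest GENCODE M21 transcript. The 27 symbols stored as dates were restored through their NCBI identifiers, and 4 genes (Nsd2, Nsd3, Kmt5b and Kmt5c) were found under older symbols. Coordinates and overlaps came from the RefSeq table of GRCm38.p6.

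The genes and lists were chosen with earlier results of these data known. Named from each other list were the called genes, or the gene of smallest p where none was called. Morf4l1, the 3 paralogue ratios and the overlapping genes Srpk2 and Dap3 were added after the values were seen. The series design calls the samples separate mice, and no 2 libraries of a group agreed within sampling noise (chi-square of 2.27 to 4.14 per degree of freedom). The procedure was tested on simulated counts. The level of the targeted gene is not reported here.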

Additional observations from a re-analysis of the deposited data

How the results depend on the processing

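The 5 calls among the 10 genes were kept with DESeq2 size factors, without a filter on low counts and with a mean of 50 counts or more. A threshold of 0.1 on the adjusted p, which these 5 pass by definition, added no other of the 10. With DESeq2, limma voom, upper-quartile factors and the non-robust fit 4 were called, in each case all but Setd2. The count was 0 on log2(FPKM + 1), 0 on log2(FPKM + 0.1), 0 with the transcript length and GC correction, 1 (Setd1b) with the correction for the length implied by counts and FPKM, 1 (Kmt2a) at an adjusted p under 0.01, and between 1 and 4 when 1 library was left out: 1 without control 1 (Kmt2a), 1 without mutant 2 (Ash1l), 2 without mutant 1, 3 without control 2, and 4 without control 3 or mutant 3. Fewer samples were fitted there; for the other settings the cause was not tested.

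Over all genes, 1190 were called (48.0% higher), against 672 on log2(FPKM + 1) (18.2% higher), 733 on log2(FPKM + 0.1) (17.2%), 402 at an adjusted p under 0.01, 1862 at one under 0.1, and 415 to 1098 with a library left out, the lowest without mutant 2. The share higher was 36.4% with upper-quartile factors and 57.5% with the length and GC correction. Chosen after seeing the data were FPKM scaled to a common median ratio (428 genes, 0 of the 10) and the block with the length and GC correction (1722 genes; 2 of the 10, Kmt2e and Setd1b).

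With the replicate number as a block, 1758 genes and the same 5 of the 10 passed. The labels give the samples no shared property but a number. Deviations from the group means correlated at 0.14, -0.026 and 0.14 between same-numbered libraries. For numbers 1 and 3 these were the highest values between the groups, followed by 0.047 for control 1 with mutant 2. Control 2 correlated best with mutant 3 (0.036). Whether same-numbered samples share a batch was not tested.

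Kmt2d turned to -0.014 on log2(FPKM + 1), -0.018 on log2(FPKM + 0.1), -0.060 with the length and GC correction, -0.016 with the implied length and -0.061 with block and correction. Nsd1 turned to -0.0083, -0.0092, -0.057, -0.043 and -0.057 in the same settings, and ranged from -0.0082 to 0.061 with a library left out. The other 8 genes stayed above 0 in all 20 alternatives. With 3 mice a group, a change of 10.4% (Setd2) was called and one of 9.75% (Kmt2b) was not. These genes also differed in spread, with a control SD of 2.37% of the mean for Setd2 and 6.94% for Kmt2b.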
